A study of Mus musculus with 4 samples.

Results

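Nuclear-encoded genes of oxidative phosphorylation were examined in mouse embryonic stem cells (mESC) that had lost the O-GlcNAc transferase gene Ogt. Members were chosen by symbol: those starting with Nduf, Uqcr, Cox4, Cox5, Cox6, Cox7, Cox8 or Atp5, and Sdha, Sdhb, Sdhc and Sdhd. The rule found 97 of the 25239 gene symbols in the count tables, 47 assigned to complex I, 4 to complex II, 8 to complex III, 20 to complex IV and 17 to complex V. The remaining member, Cox7a2l, encodes a factor that joins complexes III and IV. Of the 97 symbols, 4 (Ndufa11b, Ndufb4c, Ndufs5-ps and Cox7c-ps1) are gene copies or pseudogenes, and 8 Nduf members encode assembly factors and not subunits. The name rule also leaves out some subunits, among them Cyc1 of complex III.

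Oxidative phosphorylation takes place in the inner mitochondrial membrane. Complex I oxidises NADH and complex II oxidises succinate, and both pass electrons through ubiquinone to complex III, then through cytochrome c to complex IV, which reduces oxygen. Complexes I, III and IV pump protons, and complex V, the ATP synthase, uses the resulting gradient to make ATP. Most subunits are encoded in the nucleus and imported, while a small core is encoded in mitochondrial DNA. Naive mouse embryonic stem cells are known to use both glycolysis and respiration.

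Every library came from mESC of the genotype Ogt fl/fl, grown on mitomycin C-treated mouse embryonic fibroblasts in knockout DMEM with LIF and serum replacement. The Ogt iKO group (2 libraries) was cultured for 6 days with 4-OHT, a tamoxifen metabolite that activates tamoxifen-dependent recombinases, and its YFP+ cells were sorted. The control group (2 libraries) was cultured without 4-OHT. Per the labels, viable cells were sorted by flow cytometry to remove the feeder fibroblasts, with CD90.2 given as the marker kept for mESC and CD326 as the one for leaving out fibroblasts. CD90.2 is widely known from fibroblasts and CD326 (EpCAM) from mESC, so whether the labels list these roles in the right order is not known. Polyadenylated RNA was sequenced with a stranded kit. The labels name neither the Cre driver nor a 4-OHT-treated group with intact Ogt, so loss of Ogt, exposure to 4-OHT and selection for YFP cannot be told apart. They do not say whether the 2 libraries of a group came from separate cultures, and p-values therefore measure the spread between these samples, which may be technical.

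Total counts ran from 14668489 to 16504204 per library. The level of Ogt in Ogt iKO was 12.9% of control, from 437 and 389 counts against 2963 and 3108 (log2 fold change -2.96, adjusted p 2.486e-07, edgeR). All 12 mESC markers were lower in Ogt iKO, against 32% of all genes tested. They summed to 2813 and 3127 CPM (counts per 1000000 counts, scaled by TMM) in Ogt iKO and 5266 and 5206 CPM in control. Among them were the pluripotency factors Sox2 (-1.59 on the log2 scale), Klf4 (-1.82) and Nanog (-1.47). The 24 fibroblast markers summed to 5343 and 2317 CPM in Ogt iKO and 3077 and 3411 CPM in control, so that the first Ogt iKO library held the most and the second the least. Of the 24, 4 were called higher, 1 was lower and 19 had no call, where 33.2% and 32% of all genes tested were higher and lower. Acta2 (1.72), Pdgfrb (1.61), Twist1 (1.45) and Sparc (0.82) were higher and Vim (-0.87) was lower. Acta2 lost its call with a robust estimate of spread (adjusted p 0.0773, edgeR), and calls of fibroblast markers changed with the library left out. None of the markers was at 0. The part of either marker group in the results below was not tested beyond leaving out each library. In bulk RNA, fewer cells of a type and less RNA per cell cannot be told apart.

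Genes of oxidative phosphorylation were more often lower than higher in the Ogt iKO libraries, mostly by small amounts. Of the 97 members, 87 had enough counts to be tested, and 43 of them (49.4%) were lower and 4 were higher in Ogt iKO (edgeR's quasi-likelihood test over 14525 genes, adjusted p under 0.05). Among all genes tested, 32% were lower and 33.2% were higher, or 65.3% in either direction. The other 40 members had no call, and 73 of the 87 had a fold change below 0, against 48.7% of all genes. The median log2 fold change of the members was -0.19, against 0.024 for all genes tested, a difference of -0.21. In the 4 pairings of an Ogt iKO with a control library, the members' median lay between -0.27 and -0.15. Without the first Ogt iKO library, in which fibroblast markers were highest, the members' median was -0.15, against 0.001 for all genes. Without the second, in which fibroblast markers were lowest, the members' median was -0.26, against 0.014 for all genes.

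Few of these changes were large. At a fold of at least 2, 4 members were lower (Ndufv3, Uqcr10, Cox6b2 and Ndufa4l2) and 1 was higher (Cox8c), where 6.04% and 14.9% of all genes tested were lower and higher. Tested against a fold of 1.2 (glmTreat), 26 members were lower and 2 were higher, against 22.1% and 25.8% of all genes. Both Ogt iKO libraries lay below both controls for 61 members (70.1%) and above them for 11 members (12.6%), against 40.9% and 42.3% of all genes tested.

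The number of members called depended on the scaling. Scaled by library totals alone, the median of all genes moved from 0.024 to 0.19, and 27 members were lower and 14 were higher (22.6% and 42.1% of all genes). The share of called members that were higher went from 8.51% to 34.1%. The members' median was then -0.017, and its difference from that of all genes was again -0.21. Fold changes below are on the TMM scale. Scaling by totals moves the values up, so falls smaller than that shift do not keep their sign on both scales.

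**Figure D1:**
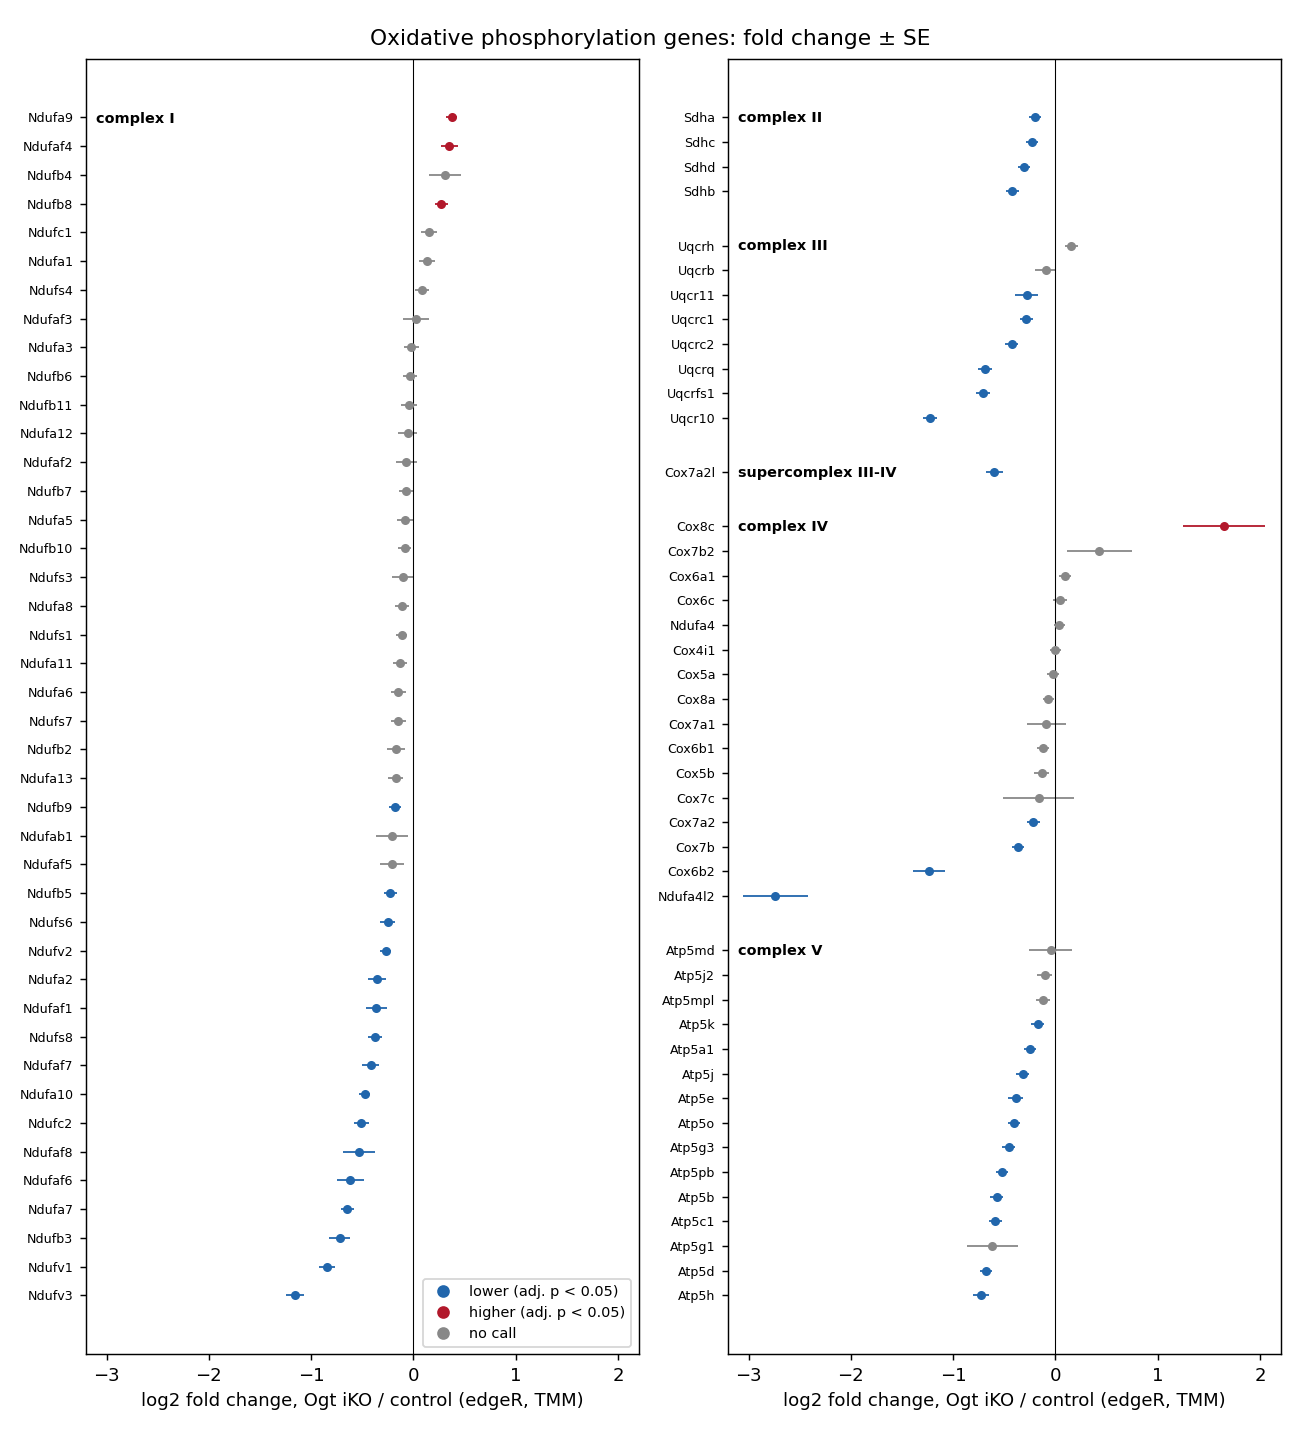
Log2 fold change (Ogt iKO over control, edgeR with TMM scaling) of the tested members by complex (1 not drawn), with bars of 1 standard error and colours for the call at an adjusted p under 0.05. Points lie from -2.74 (Ndufa4l2) to 1.65 (Cox8c), and most lie left of 0.

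Complex I, the NADH dehydrogenase, had 43 tested members, of which 17 were lower (39.5%, against 32% of all genes tested) and 3 were higher (33.2% of all genes), with a median log2 fold change of -0.15. With library totals alone 9 of the 43 (20.9%) were lower, against 22.6% of all genes, and against a fold of 1.2 it was again 9, against 22.1%, so the members of complex I were not lower more often than all genes in those settings. With an offset for GC content 26 of the 43 (60.5%) were lower, against 39.7% of all genes. Its largest falls were in genes of the arm that takes electrons from NADH. Ndufv3, an accessory subunit of that module on chromosome 17 (31520115 to 31531326, GRCm38), had 28.7 and 28.0 CPM in the Ogt iKO libraries and 59.1 and 67.5 CPM in control. Both Ogt iKO libraries were below both controls, at 44.8% of their level (log2 fold change -1.16, SE 0.0909, adjusted p 1.476e-05, edgeR). Ndufv1 on chromosome 19 encodes the subunit that binds NADH and the flavin. It had 102 and 118 CPM in Ogt iKO and 201 and 194 CPM in control, groups that did not overlap (log2 fold change -0.85, SE 0.0752, adjusted p 2.817e-05, edgeR).

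Of the 3 core subunits of the electron input module, Ndufv1 and Ndufv2 (-0.27) were lower, and Ndufs1 had a log2 fold change of -0.12 (adjusted p 0.0958, edgeR). Ndufv2 lost its call with library totals alone (-0.10, adjusted p 0.119, edgeR) and against a fold of 1.2. In the quinone-reducing module, which hands the electrons to ubiquinone, the core subunit Ndufs8 had 55.0 and 57.1 CPM in Ogt iKO and 72.0 and 73.2 CPM in control. Its groups did not overlap (log2 change -0.37, SE 0.0707, adjusted p 0.0017, edgeR). Ndufs3 and Ndufs7 had no call.

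Accessory subunits of these modules included 4 lower and 1 higher of 9, where 32% and 33.2% of all genes tested were lower and higher. Ndufa7, a small peripheral subunit, had 83.1 and 84.2 CPM in Ogt iKO and 127 and 135 CPM in control (log2 change -0.65, SE 0.0609, adjusted p 3.808e-05, edgeR). Ndufa9, a subunit near the site of ubiquinone reduction, went the other way, with 184 and 192 CPM in Ogt iKO and 147 and 143 CPM in control. Its groups did not overlap, and at 0.37 (SE 0.0566, adjusted p 5.054e-04, edgeR) it was the largest rise in complex I. Ndufs4, Ndufa5, Ndufa6 and Ndufa12 had no call.

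The proton-pumping membrane arm carries protons across the inner membrane. Of its 19 tested accessory subunits, 5 were lower (26.3%, below the 32% of all genes tested) and 1 was higher (33.2% of all genes), with a median of -0.11. Ndufa10 had 118 and 119 CPM in Ogt iKO and 164 and 165 CPM in control, so the 2 libraries of a group were closer to each other than to any library of the other group (log2 fold change -0.48, SE 0.0554, adjusted p 1.123e-04, edgeR). Ndufb3 (-0.72) and Ndufc2 (-0.51) were also lower. Ndufb8 was the member higher here, with 166 and 177 CPM in Ogt iKO and 147 and 137 CPM in control (log2 change 0.27, SE 0.0640, adjusted p 0.00564, edgeR). That call was lost without the second control library (0.21, adjusted p 0.0546, edgeR) and against a fold of 1.2. Ndufa1 and Ndufb11, which are X-linked like Ogt, had log2 fold changes of 0.13 and -0.046 with no call.

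Assembly factors, which build complex I and leave it, included 4 lower and 1 higher of 8 (32% and 33.2% of all genes tested). Ndufaf6 (-0.62), Ndufaf8 (-0.53), Ndufaf7 (-0.42) and Ndufaf1 (-0.36) were lower. Ndufaf4 had 47.5 and 46.5 CPM in Ogt iKO and 38.6 and 35.2 CPM in control (log2 change 0.35, SE 0.0826, adjusted p 0.0056, edgeR). Its call was lost without the second control library (0.27, adjusted p 0.0506, edgeR) and with an offset for exon length (0.18, adjusted p 0.0842, edgeR) or GC content (0.15, adjusted p 0.154, edgeR). It was also lost against a fold of 1.2. DESeq2 placed Ndufaf8 above the threshold. Ndufaf1 lost its call without the first library of either group, and Ndufaf8 without the second control. With library totals alone (edgeR), Ndufaf8 (adjusted p 0.0685) and Ndufaf1 (adjusted p 0.119) had no call, nor had they against a fold of 1.2. Ndufaf2, Ndufaf3 and Ndufaf5 had no call. For complex I as a whole, which members were called changed with the library left out. In the 4 pairings of an Ogt iKO with a control library, its median lay between -0.21 and -0.13, and that of all genes between -0.003 and 0.033.

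Complex II, succinate dehydrogenase, belongs to the TCA cycle as well and is the one respiratory complex with no subunit from mitochondrial DNA. All 4 of its genes were lower (32% of all genes tested), by small amounts, with a median of -0.27. Sdhb, the iron-sulfur subunit, fell most, with 88.3 and 93.9 CPM in Ogt iKO and 121 and 123 CPM in control (log2 change -0.42, SE 0.0615, adjusted p 4.005e-04, edgeR). Sdhd, a membrane anchor, had 201 and 202 CPM in Ogt iKO and 257 and 242 CPM in control (-0.31, adjusted p 0.00153, edgeR). Its partner Sdhc had 112 CPM in each Ogt iKO library and 131 CPM in each control (-0.23, adjusted p 0.0065, edgeR). Sdha, the flavoprotein that oxidises succinate, had 374 and 393 CPM in Ogt iKO and 446 and 435 CPM in control (-0.20, adjusted p 0.0131, edgeR). None of the 4 overlapped between groups, and 40.9% of all genes were likewise lower without overlap. With library totals alone, Sdhb and Sdhd were lower (22.6% of all genes), and Sdha (-0.032) and Sdhc (-0.061) had no call. Sdha also had no call without the first library of either group. Against a fold of 1.2, Sdhb was lower (22.1% of all genes) and the other 3 were not called.

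In complex III, the cytochrome bc1 complex, 6 of 8 members (75%) were lower and none was higher, against 32% and 33.2% of all genes tested, and the median was -0.36. The small subunit Uqcr10 (chromosome 11, 4701968 to 4704344) fell furthest, from 137 and 127 CPM in control to 54.5 and 58.3 CPM in Ogt iKO. The groups were far apart beside the spread within them (log2 fold change -1.23, SE 0.0716, adjusted p 4.051e-06, edgeR), and the level was 42.7% of control. Without any 1 library the log2 fold change of Uqcr10 ran from -1.30 to -1.17.

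Uqcrfs1 encodes the Rieske iron-sulfur protein, which takes electrons from ubiquinol. It had 98.8 and 110 CPM in Ogt iKO and 173 and 167 CPM in control (-0.70, adjusted p 4.157e-05, edgeR). Uqcrq, a small subunit next to cytochrome b, had 69.8 and 77.8 CPM in Ogt iKO and 121 and 117 CPM in control (-0.69, adjusted p 6.209e-05, edgeR). Neither gene overlapped between the groups.

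The core proteins Uqcrc1 and Uqcrc2 had smaller fold changes. Uqcrc1 had 324 and 356 CPM in Ogt iKO and 419 and 408 CPM in control (-0.28, adjusted p 0.0041, edgeR), a call lost with library totals alone (-0.12, adjusted p 0.126, edgeR) and against a fold of 1.2. Uqcrc2 had 212.5 and 213.1 CPM in Ogt iKO and 298 and 276 CPM in control (-0.43, adjusted p 3.061e-04, edgeR). A gene on the opposite strand covers 26.6% of the Uqcrc2 exon length, and whether the counts used strand is not given in the sources used here. Uqcr11 (-0.28, adjusted p 0.0477, edgeR) was just past the threshold and lost its call without the first Ogt iKO or the first control library, with DESeq2, with library totals alone (-0.11, adjusted p 0.382, edgeR) and against a fold of 1.2. Uqcrb (-0.096) and Uqcrh (0.16, adjusted p 0.0613, edgeR) had no call, and Uqcrh was higher with library totals alone (0.33, adjusted p 0.00205, edgeR).

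Cox7a2l is known for stabilising supercomplexes of complexes III and IV. It had 42.4 and 46.6 CPM in Ogt iKO and 68.6 and 65.9 CPM in control, groups that did not overlap, at 66.1% of control (-0.60 on the log2 scale, SE 0.0805, adjusted p 2.554e-04, edgeR). Of its transcript, 19.8% of 50-base windows are also found in another annotated gene, so its reads and those of that gene could be confused.

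**Figure D2:**
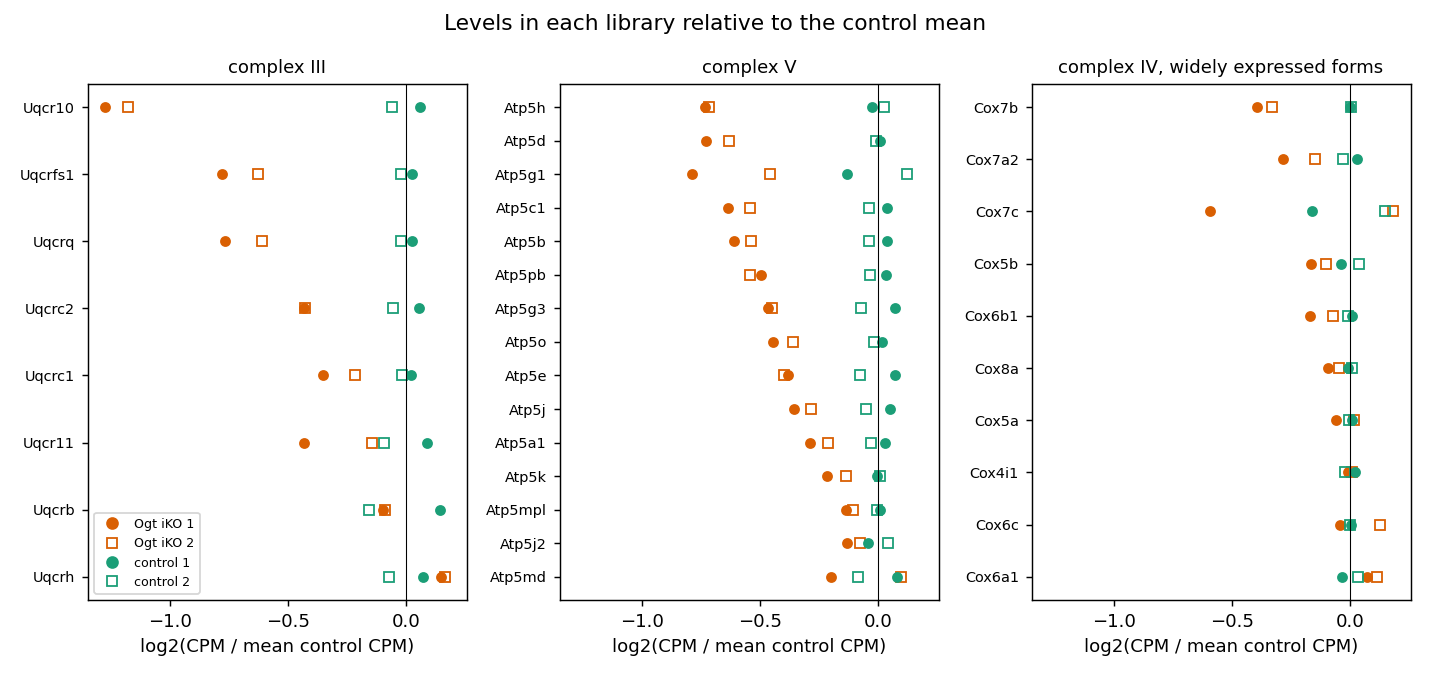
Level of each tested member of complex III, complex V and the widely expressed forms of complex IV in each library, as log2 of its CPM over the mean control CPM, with Ogt iKO in orange and control in green. In complex V both Ogt iKO libraries lie left of both controls for 14 of 15 genes, against 5 of 10 for the complex IV forms and 40.9% of all genes tested.

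Complex IV, cytochrome c oxidase, had 16 tested members, of which 4 were lower (25%, below the 32% of all genes tested) and 1 was higher (33.2% of all genes), with a median of -0.08. With an offset for GC content 7 of the 16 (43.8%) were lower, near the 39.7% of all genes (27.3% higher). Of its 10 widely expressed subunits, none was higher and 2 were lower. Cox4i1, the subunit with the most CPM, had 432 and 438 CPM in Ogt iKO and 441 and 429 CPM in control (log2 change -0.0014, SE 0.0545, adjusted p 0.984, edgeR). Both Ogt iKO libraries lay between the 2 controls. Cox5a (-0.021), Cox6c (0.043), Cox8a (-0.070), Cox6a1 (0.092), Cox6b1 (-0.12), Cox5b (-0.14) and Ndufa4 (0.039), a complex IV subunit first named for complex I, also had no call.

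Cox7b and Cox7a2 were the widely expressed subunits that fell. Cox7b, which is X-linked, had 102 and 107 CPM in Ogt iKO and 134 and 135 CPM in control, groups that did not overlap (log2 fold change -0.36, SE 0.0585, adjusted p 7.093e-04, edgeR). Cox7a2 had 131 and 144 CPM in Ogt iKO and 163 and 157 CPM in control (-0.22, adjusted p 0.0179, edgeR), and lost its call with library totals alone (-0.046, adjusted p 0.54, edgeR), without the first library of either group and against a fold of 1.2. With library totals, Cox4i1 (0.17), Cox5a (0.15), Cox6a1 (0.26), Cox6c (0.21) and Ndufa4 (0.21) were called higher. Of these, Cox4i1 and Cox5a changed sign between the scales, and for the other 3 the sign was the same and the call changed. With an offset for GC content Cox5a was called lower (-0.18, adjusted p 0.0436, edgeR).

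Several complex IV subunits have another gene that is used in particular tissues, such as muscle, lung or testis, or under low oxygen. In these cells the restricted forms were a minor share of each pair, and 3 of them changed by more than 2-fold. Ndufa4l2, a paralogue of Ndufa4 that is induced by hypoxia, had 10 and 9 counts in Ogt iKO and 52 and 69 in control, or 0.585 and 0.580 CPM against 3.36 and 4.50 CPM. Its level fell to 15% of that in control (-2.74 on the log2 scale, SE 0.314, adjusted p 1.072e-04, edgeR), the largest fall of all members. Per length of transcript it made up 0.189% and 0.183% of the pair with Ndufa4 in Ogt iKO, and 1.11% and 1.43% in control.

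Cox6b2, the testis form of Cox6b1, had 111 and 100 counts in Ogt iKO and 215 and 254 in control (6.49 and 6.45 CPM against 13.9 and 16.6 CPM). The groups did not overlap (log2 fold change -1.23, SE 0.157, adjusted p 1.856e-04, edgeR). Its share of the pair per length was 5.39% and 5.03% in Ogt iKO and 9.73% and 11.5% in control, while Cox6b1 itself had 151 and 162 CPM against 171 and 170 CPM with no call.

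Cox8c, a testis form of Cox8a, was the member that rose most, from 28 and 10 counts in control to 75 and 52 in Ogt iKO. In CPM the levels were 4.39 and 3.35 against 1.81 and 0.652, so the groups did not overlap, although the 2 controls were far apart. The log2 fold change was 1.65 (SE 0.397, adjusted p 0.0061, edgeR), and ran from 1.09 without the second control library to 2.55 without the first. Cox8c made up 3.48% and 2.60% of the pair with Cox8a in Ogt iKO and 1.38% and 0.498% in control.

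The other restricted forms had no call or too few counts. Cox7b2 had 22 and 25 counts in Ogt iKO and 17 and 16 in control (log2 fold change 0.43, adjusted p 0.259, edgeR), and Cox7a1 had 110 and 122 against 106 and 128 (-0.09, adjusted p 0.694, edgeR). Cox4i2 had 4 and 4 counts against 4 and 11, and Cox6a2 had 1 and 3 against 1 and 2. Cox8b had 0 counts in every library, which allows up to 3 counts, or 0.175 to 0.196 CPM. Without molecular identifiers, that limit reflects counting error alone.

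**Figure D3:**
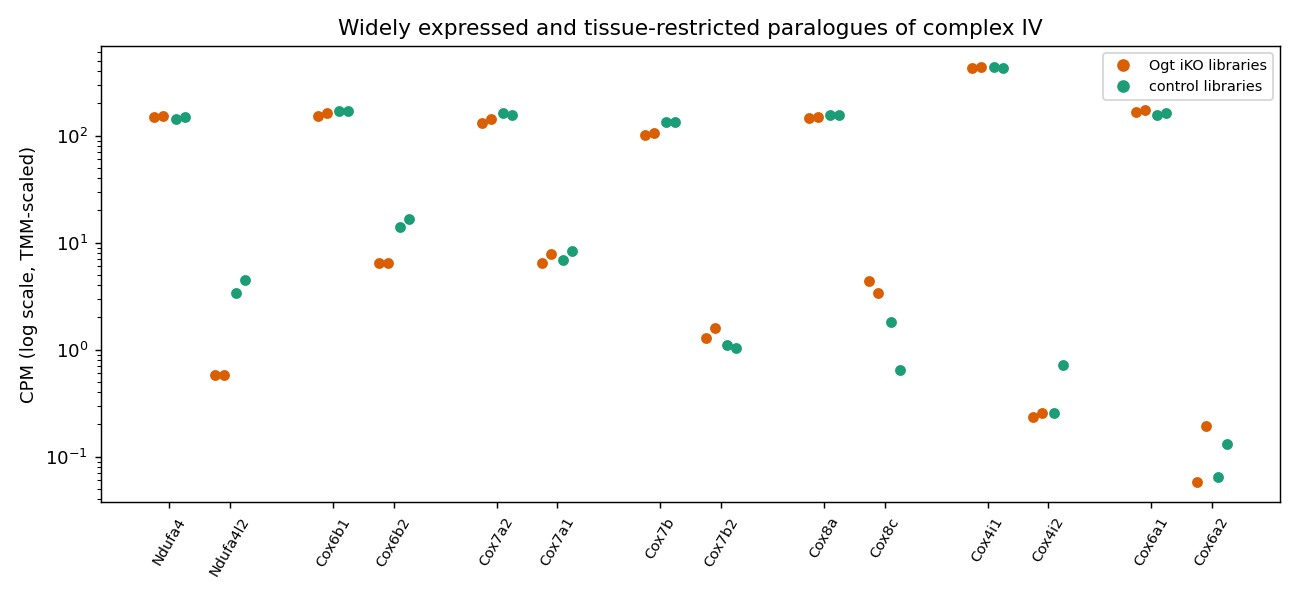
CPM on a log scale of widely expressed complex IV subunits and their restricted paralogues in each library, with Ogt iKO in orange and control in green. The widely expressed forms lie above 100 CPM in every library, and the restricted forms lie below 20 CPM, with Ndufa4l2 and Cox6b2 lower and Cox8c higher in Ogt iKO.

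Complex V, the ATP synthase, had the lowest median of the complexes with more than 4 tested genes, at -0.40. In the 4 pairings of libraries its median lay between -0.46 and -0.34 and that of complex III between -0.50 and -0.28, and complex III was the lower in the pairing of the first Ogt iKO with the first control library. Of its 15 tested members, 11 (73.3%) were lower and none was higher, against 32% and 33.2% of all genes tested. All 15 were below 0, against 48.7% of all genes. The difference between this complex and the others was not tested. All 5 genes of the catalytic F1 head were lower. Atp5b, the catalytic beta subunit and the member with the most CPM of all 97, had 1739 and 1827 CPM in Ogt iKO and 2722 and 2585 CPM in control (log2 change -0.57, SE 0.0610, adjusted p 6.991e-05, edgeR). Per kilobase of transcript its level was 1385 CPM in control and 931 CPM in Ogt iKO, the highest of the members in each group.

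Atp5a1, the alpha subunit that alternates with beta in the head, had 1713 and 1809 CPM in Ogt iKO and 2139 and 2050 CPM in control (-0.25, adjusted p 0.00612, edgeR), and lost its call with library totals alone (-0.081, adjusted p 0.229, edgeR) and against a fold of 1.2. Atp5c1, the rotating gamma subunit, had 244 and 261 CPM in Ogt iKO and 389 and 370 CPM in control (-0.59, adjusted p 6.058e-05, edgeR). Atp5d, the delta subunit beside it, had 116 and 124 CPM in Ogt iKO and 193 and 191 CPM in control (-0.68, SE 0.0598, adjusted p 2.679e-05, edgeR). The 2 groups did not overlap for any gene of the head, including Atp5e (-0.39), where 40.9% of all genes tested were lower without overlap.

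All 4 stalk genes, which hold the head still against the rotor, were lower (32% of all genes tested). Atp5h had 28.7 and 29.0 CPM in Ogt iKO and 46.8 and 48.4 CPM in control (log2 change -0.72, SE 0.0783, adjusted p 7.713e-05, edgeR). Its value is uncertain, because 66.6% of the 50-base windows of its transcript also occur in other annotated genes. Atp5pb (-0.52), Atp5o (-0.40) and Atp5j (-0.32) were lower as well, and each has exons under a gene of the opposite strand (16.3% to 21.0% of exon length). Atp5j lost its call with library totals alone and against a fold of 1.2.

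Of 4 tested membrane subunits other than subunit c, 1 was called, against 65.3% of all genes tested in either direction. Atp5k was lower (-0.17, adjusted p 0.0401, edgeR), a call lost without any 1 of 3 libraries, with library totals alone, with DESeq2, with an offset for exon length (-0.16, adjusted p 0.061, edgeR) and against a fold of 1.2. Atp5j2, Atp5mpl and Atp5md had no call. Subunit c, which forms the rotating ring, comes from 3 genes that encode the same mature protein. Atp5g3 supplied nearly all counts of these, with 329 and 332 CPM in Ogt iKO and 477 and 431 CPM in control (-0.46, SE 0.0644, adjusted p 3.225e-04, edgeR). Atp5g1 had 35 and 40 counts in Ogt iKO and 50 and 59 in control (-0.62, adjusted p 0.0551, edgeR), and Atp5g2 had 8 and 5 against 7 and 5. Of 50-base windows, 66% of Atp5g1, 100% of Atp5g2 and 0% of Atp5g3 also occur in other annotated genes. Counts of Atp5g1 and Atp5g2 are therefore uncertain, as is the share of Atp5g3. Some calls in complexes III and V changed with the library left out. In the 4 pairings of libraries given above for these complexes, the median of all genes tested lay between -0.003 and 0.033.

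Some subunits that all respiring cells need had next to no counts in any library, and their transcripts share sequence with processed pseudogenes. Ndufs5 had 0 counts in all 4 libraries, Atp5l had 5 and 3 in Ogt iKO and 0 and 1 in control, and Cox7c had 18 and 28 against 22 and 27. Windows of 50 bases of each transcript were looked up in the transcripts of all other genes of the GENCODE annotation (sense strand, exact match). The share found elsewhere was 100% for Atp5g2, 68.5% for Atp5l, 66% for Atp5g1, 53.0% for Cox7c and 41.2% for Ndufs5. A stretch of 90 coding bases of Ndufs5 (bases 106 to 195 of its coding sequence), Atp5l, Atp5g2 and Cox7c (each bases 1 to 90) is shown with the same stretch of the closest copy to let the identity be seen. The capital marks the 1 base that differs.
Ndufs5: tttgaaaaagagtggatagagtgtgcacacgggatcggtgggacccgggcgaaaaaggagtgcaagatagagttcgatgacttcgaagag
BC002163: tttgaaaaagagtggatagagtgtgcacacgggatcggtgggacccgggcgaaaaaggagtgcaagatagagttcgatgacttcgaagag
Atp5l: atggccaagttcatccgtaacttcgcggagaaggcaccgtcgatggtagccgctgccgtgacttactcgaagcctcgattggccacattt
Gm10221: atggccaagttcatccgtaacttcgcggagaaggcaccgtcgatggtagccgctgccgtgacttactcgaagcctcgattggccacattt
Atp5g2: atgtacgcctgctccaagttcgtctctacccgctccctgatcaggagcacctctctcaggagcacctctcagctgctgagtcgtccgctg
Gm10175: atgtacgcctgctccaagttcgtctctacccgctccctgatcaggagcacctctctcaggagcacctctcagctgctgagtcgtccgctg
Cox7c: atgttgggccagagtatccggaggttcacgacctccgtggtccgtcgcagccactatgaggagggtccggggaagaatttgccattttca
Gm10012: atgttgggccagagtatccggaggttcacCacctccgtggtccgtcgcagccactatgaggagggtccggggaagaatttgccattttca

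Of these stretches, 3 were identical to the copy, and that of Cox7c had 1 mismatch. The copies lie on other chromosomes than the genes, BC002163 on chromosome 16 (42955631 to 42955949), Gm10221 on chromosome 5, Gm10175 on chromosome 7 and Gm10012 on chromosome 17 (25901856 to 25902227), all in GRCm38. The members Ndufs5-ps and Cox7c-ps1 lie at the positions of BC002163 and Gm10012, and they had few counts too, 8 and 11 in Ogt iKO against 8 and 7 for Ndufs5-ps and 0 and 0 against 1 and 1 for Cox7c-ps1. Genes that span these positions, Zbtb20 (16 and 15 against 9 and 7 counts) and Rab40c (649 and 606 against 641 and 645), have rows of their own, and counts at the copies of Atp5l and Atp5g2 were not analysed here.

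Members with more shared sequence had fewer counts. The 70 members with under 10% of windows shared had a median of 1248 counts over the 4 libraries, and the 14 with at least 30% shared had 59.6. Ndufab1 (31.2%, mean of the groups 7.98 and 9.21 CPM), Ndufb4 (37.0%) and Atp5md (41.9%) were also low, while Atp5o, Ndufs3 and Uqcrb kept over 500 counts in each library with 35.5%, 35.8% and 43.2% shared. Atp5h, with 66.6% shared, had 490 and 449 counts in Ogt iKO and 724 and 742 in control. How reads that match several places were counted is not given in the sources used here. Values of the members with much shared sequence are therefore uncertain. Among the 59 tested members with little shared sequence or overlap with another gene, 32 were lower and 3 were higher, against 32% and 33.2% of all genes tested.

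**Figure D4:**
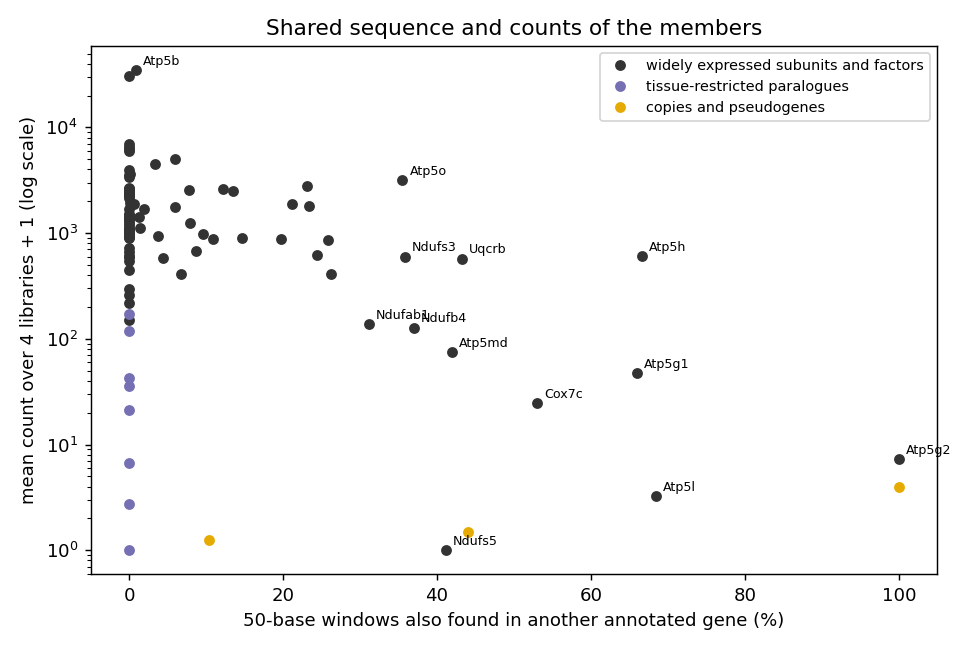
Mean count over the 4 libraries plus 1 (log scale) against the percent of 50-base windows of the transcript found in another annotated gene, for 96 of the 97 members. Black points are widely expressed subunits and factors, and Atp5g2, Atp5l, Cox7c and Ndufs5 lie near the bottom, while Atp5h, with 66.6% shared, does not.

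Transcript length differed between the members and other genes. The tested members had a median length of 763 bases against 2782 bases for all genes tested with a length, and fold changes of other genes differed with length. Other genes of 600 to 1000 bases had a median log2 fold change of -0.10, and those of 2000 to 4000 bases had 0.021. Within the class of 1000 to 2000 bases, 18 of 26 members (69.2%) were lower, against 36.2% of other genes. Within the class under 600 bases, 10 of 29 members (34.5%) were lower, against 28.3% of other genes. With an offset for exon length, 45 members were lower and 3 were higher (39.9% and 27% of all genes), and the difference between the members' median and that of all genes was -0.11 in place of -0.21. With an offset for GC content, 59 members were lower and 3 were higher (39.7% and 27.3% of all genes). Members without a call that were lower under that offset included Ndufs1 (-0.30, adjusted p 0.00286, edgeR), Cox6b1 (-0.28, adjusted p 0.0058, edgeR), Ndufa5, Ndufa6, Ndufaf5, Uqcrb, Cox5b, Atp5g1, Atp5j2 and Atp5mpl.

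Promoters of respiratory genes are known for sites of nuclear respiratory factor 1 (NRF1) and of the ETS factor GABP. RefSeq windows from 250 bases before to 50 bases after the start were matched for 76 of the 97 members and searched on both strands. The NRF1 motif (GCGCA, then any base, then GCGC) was found in 19 of 76 members (25%), in 10.8% of genes tested and in 5.19% of all genes with a window. It was in 9 of 34 members that were lower (26.5%), 7 of 35 without a call (20%) and 1 of 3 that were higher. By complex it was in 9 of 39 members of complex I, 2 of 3 of complex II and 1 of 5 of complex III. In complex IV it was in 1 of 13 members, and in complex V in 6 of 15. The ETS motif CCGGAAG was found in 25% of members and 18.6% of genes tested, and AAGGTCA, read by estrogen-related receptors, in 10.5% and 3.94%. A match describes letters and does not show a bound site. NRF1 and ETS matches do not overlap in the windows shown.

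The 4 windows of 250 bases before the start, chosen after their values were seen, show members with and without matches (GRCm38.p6, minus strand, NRF1 and ETS matches in capitals). Sdha (chr13:74350241-74350490) has 3 NRF1 matches and was lower. Sdhd (chr9:50603850-50604099) has 1 NRF1 and 1 ETS match and was lower. Cox6a1 (chr5:115348959-115349208) has 2 NRF1 matches and 1 ETS match and had no call. Uqcr10 (chr11:4704345-4704594) has no match to any of these motifs and fell to 42.7% of control.
Sdha: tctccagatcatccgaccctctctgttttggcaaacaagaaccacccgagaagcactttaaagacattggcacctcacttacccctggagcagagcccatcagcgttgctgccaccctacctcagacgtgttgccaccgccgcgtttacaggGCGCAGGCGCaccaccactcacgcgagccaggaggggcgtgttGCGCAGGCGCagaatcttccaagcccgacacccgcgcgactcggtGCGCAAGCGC
Sdhd: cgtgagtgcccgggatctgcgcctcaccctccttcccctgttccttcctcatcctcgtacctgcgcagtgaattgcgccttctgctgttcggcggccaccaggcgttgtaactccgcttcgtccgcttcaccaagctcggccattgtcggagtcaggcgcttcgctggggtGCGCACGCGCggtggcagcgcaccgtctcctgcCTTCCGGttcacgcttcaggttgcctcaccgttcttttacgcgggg
Cox6a1: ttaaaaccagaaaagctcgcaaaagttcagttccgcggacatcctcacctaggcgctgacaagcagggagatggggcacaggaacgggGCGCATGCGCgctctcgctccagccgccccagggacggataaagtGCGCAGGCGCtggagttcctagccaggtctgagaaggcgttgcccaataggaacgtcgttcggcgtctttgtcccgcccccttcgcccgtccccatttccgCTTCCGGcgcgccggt
Uqcr10: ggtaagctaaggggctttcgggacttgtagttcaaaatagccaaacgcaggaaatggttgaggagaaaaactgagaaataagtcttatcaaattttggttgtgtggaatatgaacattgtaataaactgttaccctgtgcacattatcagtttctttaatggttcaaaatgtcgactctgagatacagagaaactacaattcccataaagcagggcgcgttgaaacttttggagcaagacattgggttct

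Genes that work with the members were read from the same fit. Of 17 electron carriers and related genes, 6 were lower (35.3%, near the 32% of all genes tested) and 2 were higher (33.2% of all genes), with a median log2 fold change of -0.17. More of them were lower with an offset for GC content, where 39.7% of all genes were lower. Cyc1, the cytochrome c1 of complex III that the name rule leaves out, had 191 and 204 CPM in Ogt iKO and 314 and 283 CPM in control (-0.59, adjusted p 1.153e-04, edgeR). Dhodh, which passes electrons from pyrimidine synthesis to ubiquinone, was lower (-1.04), as were Etfb (-0.93) of the electron transfer flavoprotein and the testis cytochrome c Cyct (-0.79). Coq2 (0.38) and Coq3 (0.26), enzymes of ubiquinone synthesis, were higher, and neither was called higher with DESeq2 or against a fold of 1.2. Of 45 assembly factors outside the name rule, 17 were lower (37.8%, against 32% of all genes tested) and 3 were higher (33.2% of all genes), with a median of -0.19. Ecsit (-0.83), a factor for complex I, and Cox15 (-0.76) and Coa3 (-0.72), factors for complex IV, were lower. Sdhaf4 (0.50), a factor for complex II, and Pet100 (0.39) and Surf1 (0.21), factors for complex IV, were higher, calls that DESeq2 and the offset for GC content did not make.

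Lists for import, the TCA cycle and mitochondrial DNA had lower medians than the members. For comparison, 32% of all genes tested were lower and 33.2% were higher. Of 24 protein import genes, 16 (66.7%) were lower and none was higher (median -0.52), led by Tomm40, the channel of the outer membrane (-1.38, adjusted p 2.362e-06, edgeR). Its receptor Tomm70a (-0.80) and Timm13 (-0.85), a carrier between the membranes, were lower too. Of 18 genes in the TCA list, 12 (66.7%) were lower and 1 was higher (median -0.39). That list includes genes of pyruvate dehydrogenase, of which Pdha1 (-0.82), Pdhb (-0.72) and Pdhx (-0.62) were lower and Dlat (-0.057) had no call. Citrate synthase Cs had 231 and 242 CPM in Ogt iKO and 479 and 487 CPM in control (-1.03, adjusted p 3.068e-06, edgeR). Fumarase Fh1 (-1.25) and the isocitrate dehydrogenase subunit Idh3g (-0.92) were lower, and the subunit Idh3b (0.48) was the one higher. Of 13 genes that maintain or transcribe mitochondrial DNA, 9 (69.2%) were lower and 1, the polymerase gene Polg (0.51), was higher (median -0.38). Tfam, which packages that DNA, had 94.6 and 90.5 CPM in Ogt iKO and 170 and 153 CPM in control (-0.80, adjusted p 2.494e-05, edgeR). Ssbp1 (-0.92), which binds single strands of it, and Tfb1m (-1.06), a methylase of mitochondrial ribosomal RNA, were lower as well. Differences between these lists and the members were not tested.

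Regulators of mitochondrial biogenesis were mixed, with 5 lower (45.5%, against 32% of all genes tested) and 2 higher of 11 (33.2% of all genes). Either offset, for exon length or GC content, gave 8 lower, against 39.9% and 39.7% of all genes. Esrra, an orphan nuclear receptor of respiratory genes, had 11.5 and 10.6 CPM in Ogt iKO and 29.5 and 29.9 CPM in control (log2 change -1.43, SE 0.107, adjusted p 1.209e-05, edgeR). Ppargc1b fell most of the list, from 144 and 154 counts in control to 55 and 52 in Ogt iKO (-1.56, adjusted p 1.062e-04, edgeR). Esrrb (-0.74), also an mESC marker, Pprc1 (-0.63) and Gabpb2 (-0.48) were lower. Ppara (2.15, from 5 and 4 counts to 21 and 22) and Ppard (0.37) were higher. Nrf1 had 82.1 and 90.4 CPM in Ogt iKO and 86.3 and 85.5 CPM in control (0.0055, adjusted p 0.952, edgeR), and Gabpa had a log2 fold change of -0.085 with no call. The 13 subunits encoded in mitochondrial DNA were not analysed here.

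**Figure D5:**
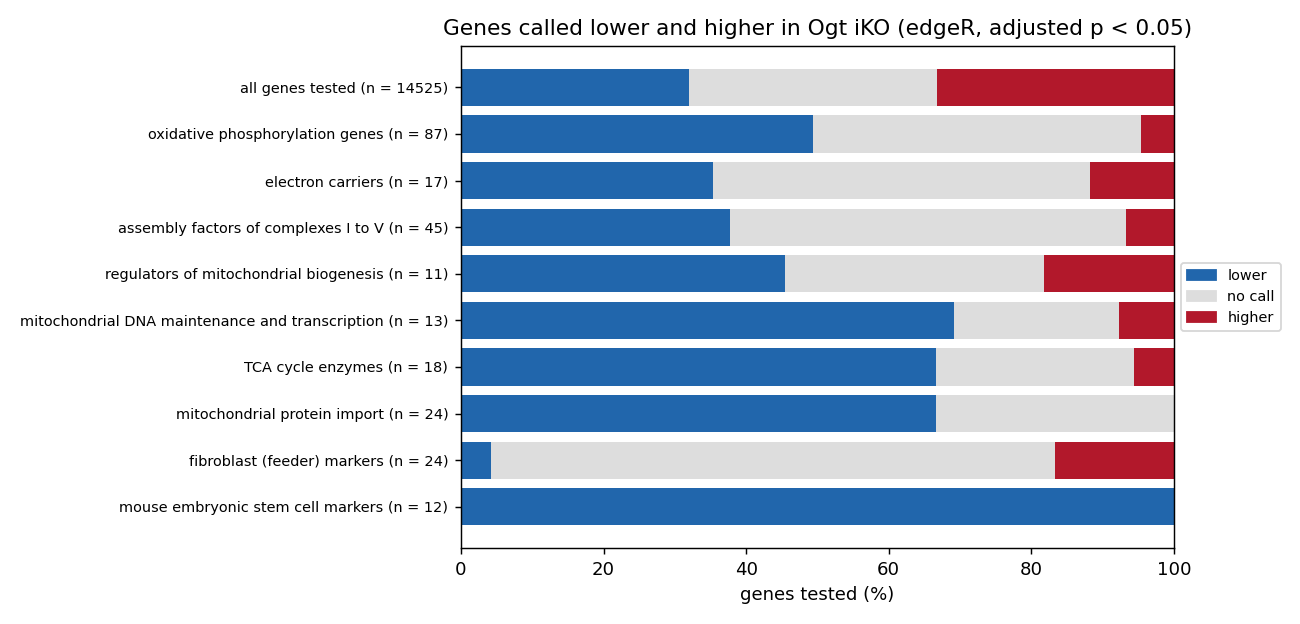
Percent of tested genes called lower (blue), higher (red) or neither (grey) by edgeR (adjusted p under 0.05), for all genes, the members and each context list. The members show 49.4% lower and 4.6% higher, against 32% and 33.2% of all genes.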

How the data were processed

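For each of the 4 libraries the authors deposited raw counts per gene, with a symbol and a whole number per row and no normalization. The submitters' processing notes name STAR, Picard and mm10. The annotation, the strand counted and the treatment of reads with several matches are not given in the sources used here. Libraries were grouped by title.

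Counts were tested in R 4.3.3 by edgeR's quasi-likelihood test (version 4.0.16, TMM, filterByExpr, all 4 libraries in one fit, no covariate), with Benjamini-Hochberg adjustment over 14525 genes and a threshold of 0.05. An exact test of 2 libraries against 2 cannot go below 0.333, so calls rest on a spread shared among genes (biological coefficient of variation 7.82%). In simulated counts for 14525 genes, 200 genes were changed and every gene had the same spread. There, 33% of genes changed by 0.5 (log2), 81% of those changed by 1 and 95% of those changed by 2 were recovered. In the data 65.3% of genes tested were called, so these rates need not hold there.

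Positions and promoters are from RefSeq, and lengths (shortest principal transcript) and shared sequence from GENCODE M21, on GRCm38. The members and lists were chosen with earlier results of these data known. Named are, per complex, up to 4 called members of smallest adjusted p in each direction, the member with the most CPM, paralogue pairs, subunit c genes, members without a test and up to 3 genes per list and direction. Others were named after their values were seen. The result for 1 member is not reported here. DESeq2 1.42.0, other scalings, filters, offsets, glmTreat and leaving out each library were tried.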

Additional observations from a re-analysis of the deposited data

How the results depend on the processing

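The members' median minus that of all genes stayed below 0 in every setting run, from -0.27 to -0.15 with 1 library left out, and moved most with an offset for exon length (-0.11). With 1 library left out, 33 to 47 members were lower and 2 to 5 were higher, in complex I 11 to 19 and 1 to 3. Each of these fits left 1 library in 1 group. Their counts were not set against all genes, so they do not show that complex I fell more often than all genes did. With library totals alone, 27 members were lower and 14 higher (22.6% and 42.1% of all genes), in complex I 9 and 7, in complex II 2 lower and in complex IV 6 higher. Against a fold of 1.2, 26 were lower and 2 higher (22.1% and 25.8% of all genes), in complex I 9 and 1 and in complex II 1 lower. An offset for GC content gave 26 lower in complex I and 7 in complex IV (39.7% of all genes). An adjusted p under 0.01 gave 11 of 43 lower in complex I, near the 25.1% of all genes. Keeping members with little shared sequence, chosen after seeing the data, left 7 lower in complex V, where fewer genes were tested. DESeq2 called 40 lower and 4 higher (20.6% and 17.8% of all genes).

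Signs near 0 changed. Cox4i1 was 0.17 with library totals, 0.040 with upper-quartile factors, 0.0081 with a CPM filter and -0.034 to 0.014 with 1 library left out. With library totals Cox6b1 was 0.048, Cox7a1 0.079 and Cox8a 0.099. With 1 library left out Cox7a1 ran from -0.26 to 0.056 and Ndufa4 from -0.0014 to 0.061, and Ndufa4 was -0.16 with the GC offset.

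In the lists, higher electron carriers numbered 4 with totals, 1 with RLE factors, no filter or either offset, 0 with glmTreat, DESeq2 or p under 0.01, and 0 to 2 with 1 library left out. Lower electron carriers numbered 10 with the GC offset, against 39.7% of all genes. Higher assembly factors numbered 10 with totals, 1 with glmTreat, 0 with the GC offset, DESeq2 or p under 0.01 and 1 to 3 with 1 library left out, and 28 were lower with the GC offset. Higher regulators numbered 1 with glmTreat, the length offset or p under 0.01, and their calls changed with the library left out. With either offset 8 regulators were lower, against 39.9% (length) and 39.7% (GC) of all genes. With totals, 2 mitochondrial DNA genes, 4 TCA genes and 2 import genes were higher, and 0 to 1 import genes with 1 library left out. Fibroblast markers ran from 4 to 21 higher and 1 to 18 lower with 1 library left out, with 2 higher and 0 lower under a robust spread and 2 lower under either offset. The cause of these moves was not tested.

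With the replicate number as a block, 44 members were lower and 4 higher (32.5% and 33.9% of all genes). The correlation of deviations between libraries of the same replicate number was 0.0859. With 2 libraries per group, this value cannot show whether the libraries were paired.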
